A study of Mus musculus with 6 samples.

Results

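The genes of mouse chromosome 8 were examined in mammary tumors of NeuT/ATTAC mice. The chromosome was selected on measured values, since its genes stood lower in the tumor called anti-PD-1 replicate 2 than in the other 5 tumors. Its members were the Ensembl gene IDs that the GRCm38 annotation places on chromosome 8 and whose mean FPKM (fragments on a gene relative to its exon length and the library size) over the 6 tumors was at least 0.5. There were 804 such genes, of 2539 chromosome 8 gene IDs in the files and of 15069 genes of all chromosomes past the same filter. Of the 2539 IDs, 1458 were above 0 in at least 1 tumor. Just inside the filter lay 1810012K16Rik and Gm16116, with mean FPKM of 0.501 and 0.502, and just outside lay Zfp423 and Snx20, both at 0.497.

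RNAseq profiles were available for 6 samples labelled as tumors, 3 of them IgG and 3 anti-PD-1, each with a file of its own and called a tumor here. The mice carried MMTV-NeuT, which drives Erbb2 in the mammary epithelium, and FAT-ATTAC, which is active in adipocytes and lets AP20187 ablate mammary adipose tissue and induce fibrosis. FAT-ATTAC came from a C57BL/6 line crossed into FVB. AP20187 was injected at 0.4 mg/kg into the mice of both groups from 6 weeks of age (triweekly by the methods, biweekly by the labels). From 8 weeks of age, IgG or the anti-PD-1 mAb was injected at 100 μg, 2 times per week. The age at which tumors were taken is not given in the labels. A figure legend of the study describes pooled RNA, and the labels do not say whether the samples of a group came from separate mice, so that p-values measure the spread between these samples, which may be technical.

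Depth was even, at 21065845 to 23843887 recovered reads per tumor, and the median-of-ratios factors lay between 1.00 and 1.01. All 8 mammary epithelial markers were above 0 in every tumor, with a summed FPKM of 2147 to 3974. Values are given below in the order IgG replicates 1, 2 and 3, then anti-PD-1 replicates 1, 2 and 3. Differences are on the log2(FPKM + 1) scale, which understates the change of weakly expressed genes.

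Mouse chromosome 8 carries genes of many functions. Among them are the genes for E-cadherin and VE-cadherin, which hold epithelial and endothelial cells to their neighbors, the receptor tyrosine kinase Fgfr1, the collagen IV chains of basement membranes, metallothioneins, ribosomal proteins and subunits of the respiratory chain. Large families of the chromosome, such as the defensins and carboxylesterases, act mainly in the gut, the liver or the epididymis. The genes share one DNA molecule, but the level of each also depends on its own promoter and on the cell types that a tumor holds.

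The 804 members were mostly protein-coding, with 672 of the 1039 protein-coding IDs of the chromosome past the filter. They also included 30 processed pseudogenes, 26 lincRNAs, 18 antisense RNAs and 12 miRNA genes. The tissue-restricted families were largely silent. No alpha-defensin of 22 was above 0, the beta-defensins gave 1 member of 24 (Defb1), and none of 17 carboxylesterases passed the filter although 12 were above 0. Of 8 cadherins 5 were members (Cdh1, Cdh3, Cdh5, Cdh11 and Cdh13), of 4 metallothioneins 1 (Mt1), of 7 CD209 lectins 3, and of 3 Iroquois factors 2 (Irx3 and Irx5). The first member along the chromosome was Insr, which starts at base 3122061, and the last was Gm32856, which ends at base 129282844 (GRCm38).

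The promoters of 4 genes are shown because these genes mark both kinds of behavior described below: Bst2, Isyna1 and Cmc2 did not follow the chromosome in anti-PD-1 replicate 2, and Crispld2 was the most abundant of the 10 genes named for lying below the other tumors. The sequences are from RefSeq (GRCm38.p6), run 5′ to 3′ along the gene's strand, and hold bases before the start of the gene, up to 250 of them, less any that GENCODE counts as part of the gene. Capitals mark matches on either strand to motifs of known transcription factors. The interferon-stimulated response element was searched for as GAAA, any 2 bases and GAAA again. The search for the TATA box used the letters TATAAA. The CCAAT box was searched for by the letters of its name. Finally, the GC box was searched for with the letters GGGCGG.
Bst2, chr8:71537473-71537722, minus strand: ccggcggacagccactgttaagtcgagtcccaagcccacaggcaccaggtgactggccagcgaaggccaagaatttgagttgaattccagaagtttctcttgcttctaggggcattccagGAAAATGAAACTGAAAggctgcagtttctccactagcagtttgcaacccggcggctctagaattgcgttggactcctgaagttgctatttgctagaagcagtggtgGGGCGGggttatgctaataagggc
Isyna1, chr8:70594231-70594372, plus strand: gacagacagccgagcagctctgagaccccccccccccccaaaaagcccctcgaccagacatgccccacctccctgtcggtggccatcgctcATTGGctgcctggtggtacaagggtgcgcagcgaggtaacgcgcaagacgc
Cmc2, chr8:116921456-116921686, minus strand: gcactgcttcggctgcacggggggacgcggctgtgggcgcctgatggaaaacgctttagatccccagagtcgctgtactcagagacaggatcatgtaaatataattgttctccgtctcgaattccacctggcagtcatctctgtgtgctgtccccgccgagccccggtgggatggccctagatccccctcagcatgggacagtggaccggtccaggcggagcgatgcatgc
Crispld2, chr8:119992188-119992437, plus strand: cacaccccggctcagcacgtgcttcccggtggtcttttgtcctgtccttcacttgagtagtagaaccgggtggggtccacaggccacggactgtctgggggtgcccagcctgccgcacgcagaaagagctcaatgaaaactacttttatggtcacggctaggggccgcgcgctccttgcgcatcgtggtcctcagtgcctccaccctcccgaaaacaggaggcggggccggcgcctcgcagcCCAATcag

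The run in Bst2 holds 2 overlapping matches to the interferon element and 1 GC box. Isyna1 and Crispld2 each hold 1 CCAAT box (in Isyna1 on the opposite strand), and Cmc2 holds none of the 4 motifs. Of the members, 477 had a RefSeq window by symbol, in 585 windows. In the 250 bases before the start, the interferon element was found in 2.91% of the members' windows and in 2.98% of all 32851 windows. GC boxes were in 58.8% of the members' windows and 32.7% of all, CCAAT boxes in 36.9% and 33.9%, and TATA boxes in 7.18% and 12.4%. The median GC content was 60.4% in the members' windows and 52.4% in all windows, which include genes that were silent in these tumors.

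Across the chromosome, anti-PD-1 replicate 2 was the low tumor. The chromosome shift, which is the median log2 deviation of its genes from the mean of the 6 tumors minus the same median over all genes, was -0.059, 0.028 and 0.045 in the IgG tumors and 0.14, -0.29 and 0.14 in the anti-PD-1 tumors. Anti-PD-1 replicates 1 and 3 thus held the highest values and replicate 2 the lowest, 1 anti-PD-1 tumor on the opposite side of the IgG tumors from the other two. The SD over the 5 tumors other than replicate 2 was 0.084. Among the 20 chromosomes (19 autosomes and X), chromosome 8 ranked lowest in anti-PD-1 replicate 2, highest in replicate 1 and next to highest in replicate 3.

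**Figure D1:**
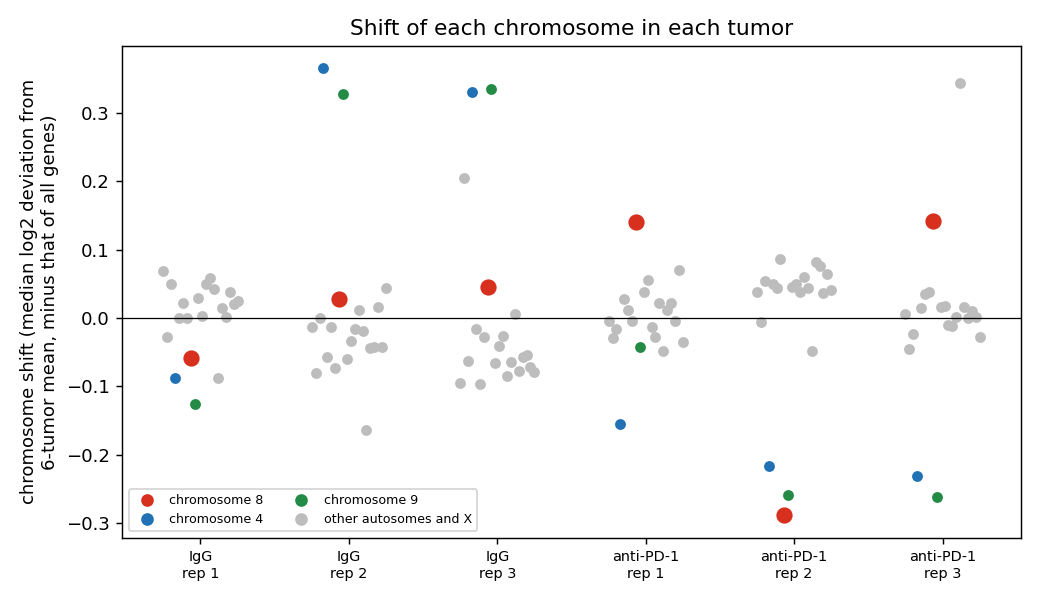
Shift of each chromosome (median log2 deviation of its genes from the 6-tumor mean, minus that of all genes) in each tumor, 1 point per chromosome; chromosome 8 is red, chromosome 4 blue and chromosome 9 green. Chromosome 8 lies at -0.29 in anti-PD-1 replicate 2 and at 0.14 in both other anti-PD-1 tumors, and chromosomes 4 and 9 are low in anti-PD-1 replicate 2 as well.

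Chromosomes 4 and 9 were also low in anti-PD-1 replicate 2, at -0.22 and -0.26, whereas the other 17 chromosomes ranged from -0.048 to 0.087. These chromosomes followed another order of tumors, however. Chromosome 4 stood at -0.088, 0.37 and 0.33 in the IgG tumors and at -0.16, -0.22 and -0.23 in the anti-PD-1 tumors, and chromosome 9 at -0.13, 0.33 and 0.33 and at -0.042, -0.26 and -0.26. On both, anti-PD-1 replicate 3 lay as low as replicate 2, while on chromosome 8 it was among the high tumors.

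Gene by gene, anti-PD-1 replicate 2 was compared with the mean of the other 5 tumors. This contrast chose the chromosome, so its values are a description and carry no test. The median difference over the 804 genes was -0.35, with quartiles of -0.55 and -0.14, against 0.0016 over all 15069 genes, a shift of -0.35. In FPKM the median ratio of replicate 2 to the mean of the other 5 was 0.721 on chromosome 8 and 0.979 over all genes. On chromosomes 4 and 9 it was 0.761 and 0.725, with 78.5% and 82.1% of their genes below the mean of the other 5. The shares of their genes below the range of the other 5 were 25.2% and 29.3%. Of the 804 genes, 677 (84.2%) were below the mean of the other 5 and 127 above it. Anti-PD-1 replicate 2 lay below the whole range of the other 5 tumors for 405 genes (50.4%; over all genes 17.2%) and above it for 22 (2.74%; over all genes 19.3%).

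When each tumor in turn was set against the other 5, the lowest value of a chromosome 8 gene fell in the IgG tumors for 102, 107 and 93 genes and in the anti-PD-1 tumors for 45, 405 and 32. These were 12.7%, 13.3%, 11.6%, 5.60%, 50.4% and 3.98% of the members, beside 8.10%, 21.4%, 20.3%, 13.7%, 17.2% and 16.2% over all genes. The highest value fell in the IgG tumors for 71, 157 and 147 genes and in the anti-PD-1 tumors for 217, 22 and 190. As shares these were 8.83%, 19.5%, 18.3%, 27.0%, 2.74% and 23.6%, beside 9.81%, 20.6%, 19.3%, 14.98%, 19.3% and 16.0% over all genes. The shift was -0.070, 0.033 and 0.054 for the IgG tumors and 0.17, -0.35 and 0.17 for the anti-PD-1 tumors. Replicate 2 was therefore the lowest tumor for more genes than all others together, and anti-PD-1 replicates 1 and 3 were the highest more often than any IgG tumor.

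The lower level was spread over the length of the chromosome. In 13 windows of 10 Mb, with 18 to 118 genes each, the median difference between replicate 2 and the other 5 was below 0 in every window. It was largest, at -0.42, in the last window (120 to 130 Mb, 103 genes) and smallest, at -0.22, between 60 and 70 Mb (39 genes). The share of genes below the range of the other tumors ran from 35.9% in that window to 63.2% between 20 and 30 Mb. The longest run of neighboring genes above the mean of the other 5 held 5 genes, Gm45418, Ddx60, Gm45589, Cpe and Msmo1, and no longer stretch lay above it.

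**Figure D2:**
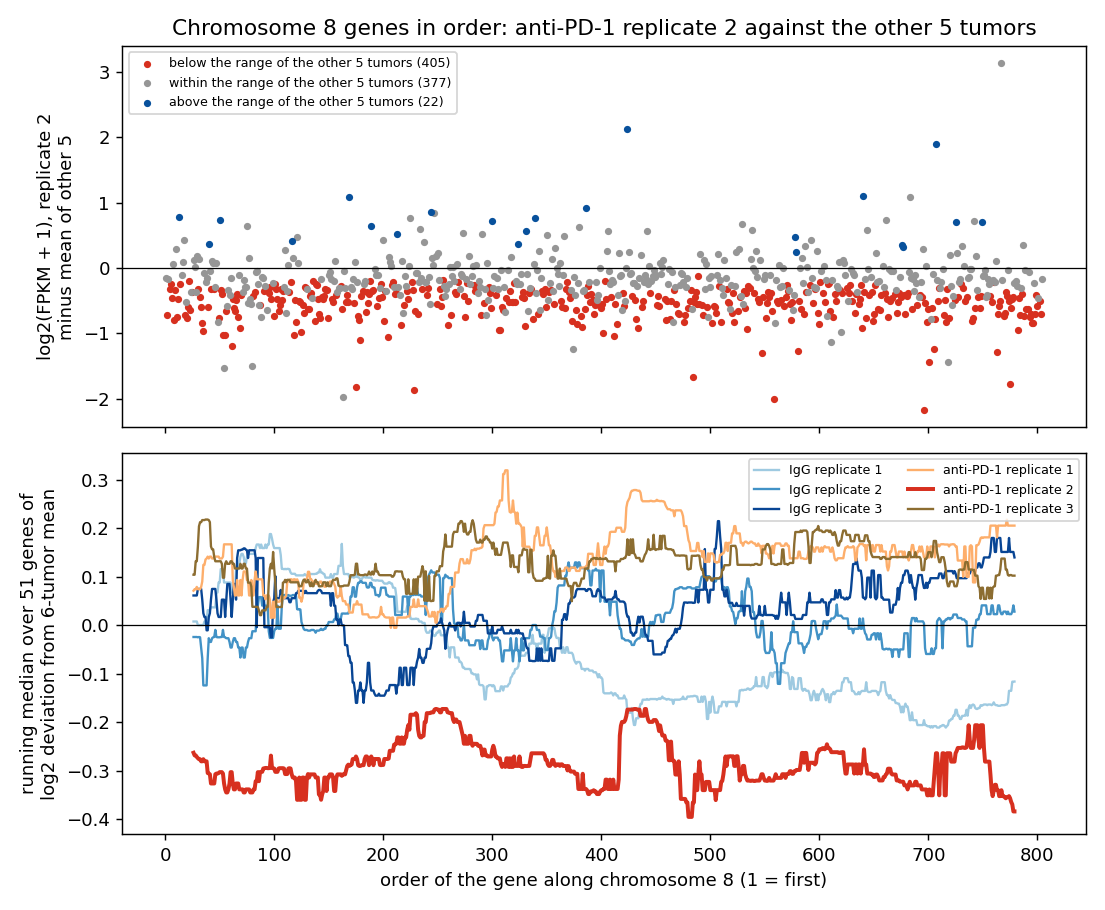
Chromosome 8 genes in their order along the chromosome. Upper plot, log2(FPKM + 1) in anti-PD-1 replicate 2 minus the mean of the other 5 tumors, 1 point per gene, with 405 genes below the range of the other tumors (red), 22 above it (blue) and 377 within it (gray). Lower plot, running median over 51 genes of the log2 deviation from the 6-tumor mean in each tumor, where anti-PD-1 replicate 2 stays below 0 throughout and IgG replicate 1 passes from above 0 to below 0.

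The other tumors differed in their course along the chromosome. IgG replicate 1 had a median deviation of 0.094 for the 236 genes that start before 60 Mb and of -0.13 for the 568 genes from 60 Mb on, a boundary set after the values were seen. The same medians were 0.017 and 0.031 in IgG replicate 2, 0.018 and 0.053 in IgG replicate 3, 0.059 and 0.17 in anti-PD-1 replicate 1, -0.29 and -0.29 in anti-PD-1 replicate 2, and 0.11 and 0.15 in anti-PD-1 replicate 3. IgG replicate 1 was the tumor that changed sign at this point, while anti-PD-1 replicate 2 had the same level on both sides.

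The difference was seen at all levels of expression. The median was -0.27 for the 198 genes with a mean FPKM of 0.5 to 2, -0.37 for 342 genes from 2 to 10, -0.37 for 227 genes from 10 to 50 and -0.33 for 37 genes from 50 up. For the 421 genes whose mean reached 5 FPKM, where 1 added to the FPKM matters less, the median FPKM ratio was 0.736, against 1.02 for genes of that level off chromosome 8. Protein-coding genes had a median of -0.36, long noncoding RNAs of -0.22 (66 genes), pseudogenes of -0.19 (41) and small RNA genes of -0.24 (25). Genes of the forward and reverse strands stood at -0.36 and -0.32. Members whose promoter held CpG at 0.6 or more of the expected frequency had a median of -0.37 (339 genes) and those with less CpG one of -0.25 (138 genes). The 339 members that overlap no other annotated gene had a median of -0.35, with 173 below the range and 9 above.

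By the rule for named genes, 10 genes were taken of those with mean FPKM of at least 5 and replicate 2 below the range of the other tumors. With the largest differences from the mean of the other 5, these were Atp2c2, Scrg1, AI429214, Agt, Crispld2, Cdh5, Rhou, Gas6, Acsl1 and Ddhd2. Atp2c2, a Golgi calcium and manganese pump of secretory epithelium, had FPKM of 5.51, 8.81, 31.04, 9.03, 1.98 and 20.7. Scrg1 had values of 28.0, 22.0, 53.0, 11.7, 7.30 and 55.0, and the protein-coding gene AI429214 values of 13.4, 12.7, 9.30, 7.57, 1.73 and 3.93. In all of these replicate 2 was the lowest tumor, but the other 5 were themselves far apart.

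Angiotensinogen (Agt), the precursor of the angiotensins, stood at 5.38, 9.01, 10.9, 4.65, 1.40 and 7.61 FPKM. Rhou was at 25.9, 33.4, 22.9, 25.5, 10.2 and 24.9, so that the other 5 tumors lay close together and replicate 2 well apart from them (difference -1.29, SD of the other 5 0.20). Acsl1, which activates long-chain fatty acids, was at 4.27, 9.86, 7.80, 5.69, 2.48 and 5.06. The phospholipase Ddhd2 was at 6.85, 6.91, 16.7, 4.51, 3.12 and 4.77, with every anti-PD-1 tumor below every IgG tumor.

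**Figure D3:**
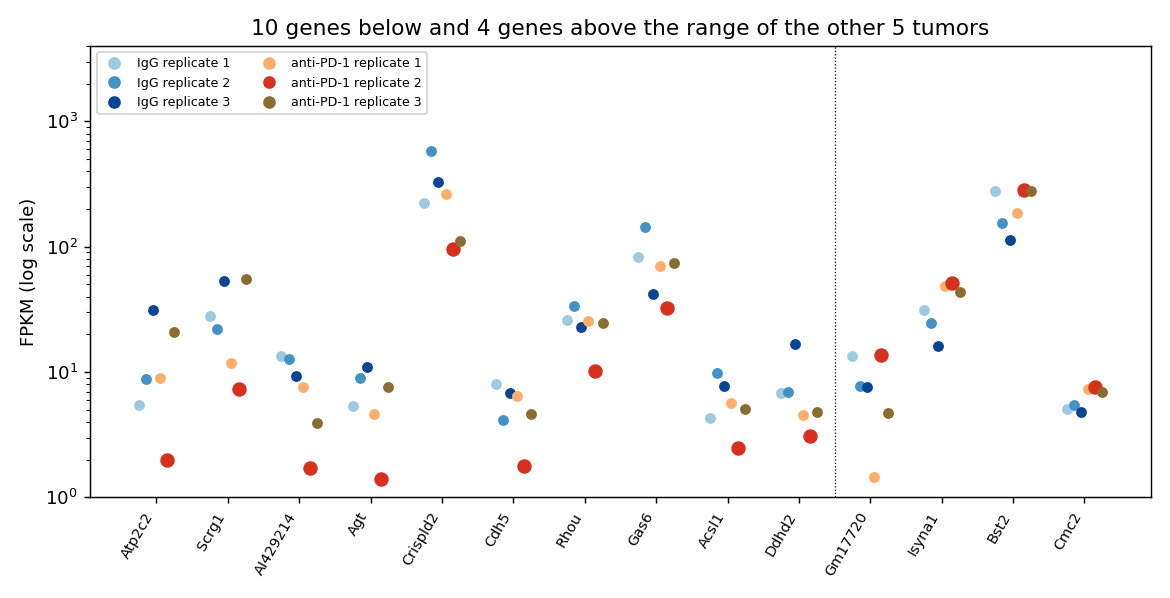
FPKM (log axis) of 14 chromosome 8 genes in each of the 6 tumors, 1 point per tumor. To the left of the dotted line are 10 genes below the range of the other tumors in anti-PD-1 replicate 2 (red), those with the largest difference from the mean. To the right are the 4 genes above the range. In Rhou anti-PD-1 replicate 2 lies at 10.2 FPKM against 22.9 to 33.4 in the others, whereas in Bst2 (283 FPKM), Isyna1 and Cmc2 it is only just above the next tumor.

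Genes above the range of the other tumors were the clearest that did not follow. Of the 421 genes whose mean reached 5 FPKM, 45 were above the mean of the other 5 tumors. In this class 239 (56.8%) lay below the range of the other 5, against 12.6% of genes at this level off chromosome 8, and 4 (0.95%) lay above it, against 21.1%. These 4 were Gm17720, Isyna1, Bst2 and Cmc2. Isyna1, the enzyme that makes inositol phosphate from glucose 6-phosphate, had FPKM of 31.3, 24.7, 16.0, 48.4, 51.02 and 43.8. All 3 anti-PD-1 tumors were above all IgG tumors, and replicate 2 was close to anti-PD-1 replicate 1. Cmc2, a mitochondrial protein of cytochrome c oxidase assembly, likewise separated the groups, at 5.09, 5.49, 4.81, 7.38, 7.59 and 6.96. Bst2 (tetherin), an interferon-induced protein that retains viruses at the cell surface, was at 278, 153.8, 114, 185, 283 and 278. In Bst2 replicate 2 was level with IgG replicate 1 and anti-PD-1 replicate 3. Gm17720 rested on 1 to 9 reads per tumor and overlaps Zfp612, so its value says little.

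The other 18 genes above the range had a mean FPKM under 5, and 14 of the 22 had fewer than 50 reads in replicate 2. Cars2 (mitochondrial cysteinyl-tRNA synthetase) had 595, 595, 503, 681, 868 and 792 reads, and Ankle1, a nuclease of the LEM domain family, 135, 136, 176, 148, 219 and 176. Cdyl2, a chromodomain gene that directly precedes Cmc2 among the members, was at 1.15, 0.93, 0.66, 1.36, 1.69 and 1.502 FPKM. Mir23a, a miRNA gene, had 0, 0, 3, 0, 10 and 3 reads, too few to compare. These 4 were named after their values were seen.

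Rpl13, Calr, Crispld2 and Cpe were among the 5 most abundant members, and they fell on both sides. Ribosomal protein gene Rpl13 had FPKM of 394, 403, 389.7, 411, 299 and 455, with replicate 2 below 5 tumors that otherwise lay close together (difference -0.45, SD of the other 5 0.090). Calreticulin (Calr), a chaperone of the endoplasmic reticulum, was at 301, 336, 299, 370.1, 314 and 393, with replicate 2 inside the range. Cpe, a carboxypeptidase that trims peptide hormones, was at 234, 99.4, 56.7, 439, 332 and 368, where replicate 2 was above every IgG tumor and below both other anti-PD-1 tumors.

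Members were then grouped by function, in lists that were written with earlier results of these data known. Each list is described by its counts and its median difference between replicate 2 and the other 5 tumors, beside the median of 0.0016 over all genes and of -0.35 over the chromosome. The counts are to be read beside the shares below the range, 50.4% on the chromosome and 17.2% over all genes. Above the range these shares were 2.74% and 19.3%. All 8 medians were below 0, from -0.50 to -0.19.

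**Figure D4:**
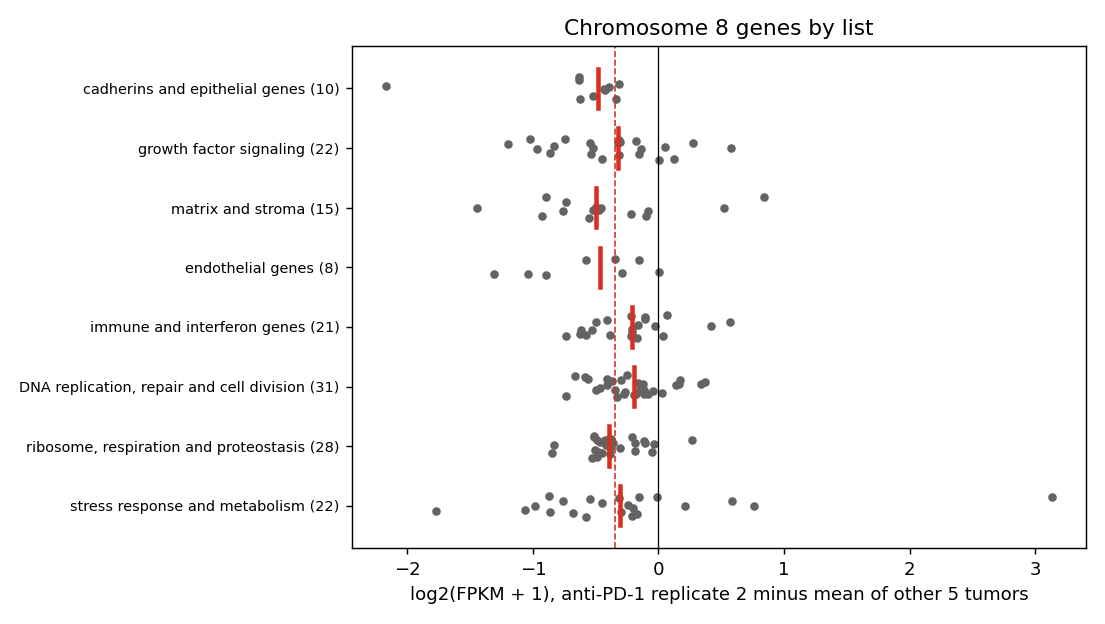
Difference in log2(FPKM + 1) between anti-PD-1 replicate 2 and the mean of the other 5 tumors for the chromosome 8 genes of 8 lists (number of members in parentheses), 1 gray point per gene, with the median of each list as a red bar and that of the 804 genes as a dashed line. Every list has its median below 0, from -0.50 for matrix and stroma to -0.19 for DNA replication, repair and cell division.

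Of the epithelial genes all 10 members were lower in replicate 2 than the mean of the others, with a median of -0.48, 7 below the range and 0 above. E-cadherin (Cdh1) was at 86.7, 125, 80.7, 93.9, 62.4 and 72.3 FPKM, and the potassium channel Kcnk1 at 44.1, 63.0, 70.6, 65.2, 42.5 and 101. In Cdh1 replicate 2 was the lowest with anti-PD-1 replicate 3 next to it, and in Kcnk1 it was level with IgG replicate 1. Esrp2, a splicing factor of epithelial cells, was at 18.4, 23.4, 25.6, 25.5, 19.8 and 34.1, within the range, and Elmo3 at 13.1, 16.7, 17.3, 17.2, 11.4 and 15.4, below it. Mammary epithelial markers of other chromosomes had a median of 0.071 over 8 genes, 2 of them above the range and 0 below. Myoepithelial markers had a median of -0.32, with 4 of 5 lower in replicate 2 and 0 outside the range. Their sum was 7.10 to 12.2 FPKM in the IgG tumors and 5.13, 5.07 and 5.77 in the anti-PD-1 tumors, none was at 0, and their part was not tested. The Iroquois transcription factors Irx3 (32.6, 40.9, 43.4, 40.4, 21.5 and 26.7) and Irx5 (18.5, 21.3, 24.9, 22.8, 13.4 and 17.6), named as a family after their values were seen, were both lowest in replicate 2.

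Growth factor signaling gave 22 members with a median of -0.32, 12 below the range and 0 above. Fgfr1 was at 57.9, 51.1, 56.3, 56.9, 31.9 and 67.0 FPKM, with replicate 2 apart from 5 tumors that differed little (difference -0.84, SD of the other 5 0.14). Gas6, the ligand of the TAM receptors Tyro3, Axl and Mertk, was at 83.0, 144, 41.9, 70.8, 32.7 and 74.3. The AP-1 subunits were within the range, with Jund at 58.0, 102, 71.1, 92.2, 59.3 and 59.4 and Junb at 51.4, 65.8, 40.3, 89.1, 55.3 and 69.5. In Jund the difference from the mean of the other 5 was -0.33, near the list median, and in Junb it was -0.14. Il34, another ligand of this list, differed by 0.58 and was within the range. Of the 22 members 17 were lower in replicate 2 and 5 higher.

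For matrix and stroma the median of 15 members was -0.50, with 5 below the range and 0 above. Crispld2, a secreted protein of mesenchymal cells, was at 224, 576, 328, 263, 95.6 and 111 FPKM, where anti-PD-1 replicate 3 was nearly as low as replicate 2. Comp, a cartilage matrix protein, was at 125, 18.5, 95.7, 390.5, 196 and 522 and was within the range, above all IgG tumors and below both other anti-PD-1 tumors. Integrin beta 1 (Itgb1) was at 235, 276, 149, 207, 153 and 211. Fibroblast markers of other chromosomes were lower in replicate 2 for 8 of 8 genes, with a median of -0.80 and 4 below the range. Their summed FPKM was 87.8 to 259 in the IgG tumors and 376, 100.0 and 234 in the anti-PD-1 tumors, none was at 0 in any tumor, and their part in the matrix values was not tested. Fewer cells of a type and less RNA per cell cannot be told apart in bulk tumors, here and in the lists that follow.

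Endothelial genes gave 8 members with a median of -0.46, 5 below the range and 0 above. VE-cadherin (Cdh5) was at 8.06, 4.11, 6.77, 6.48, 1.77 and 4.62 FPKM, and Plvap, of the diaphragms of fenestrated vessels, at 15.5, 10.2, 18.0, 23.9, 8.09 and 14.7. The flow-responsive factor Klf2 was within the range, at 6.74, 3.97, 4.75, 9.14, 6.01 and 6.47, and Lyl1 was at 1.26, 2.96, 1.502, 2.89, 1.92 and 3.18. Endothelial markers of other chromosomes were also lower in replicate 2 for 8 of 8 genes, with a median of -0.38 and 6 below the range. Their sum was 19.1 to 24.2 FPKM in the IgG tumors and 23.2, 14.2 and 17.4 in the anti-PD-1 tumors, with no marker at 0. Their part in the values of Cdh5 and Plvap was not tested.

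Immune and interferon genes stood closer to the other tumors, with a median of -0.21 over 21 members, 6 below the range and 1, Bst2, above. Ifi30, a lysosomal thiol reductase of antigen processing, was at 41.9, 46.5, 65.5, 57.4, 48.2 and 39.0 FPKM. Psmb10, a subunit of the immunoproteasome, was at 17.9, 39.5, 19.97, 24.6, 34.0 and 28.8, where replicate 2 was exceeded by IgG replicate 2 alone. Cyba, a subunit of the phagocyte NADPH oxidase, was at 52.2, 37.9, 16.0, 63.5, 32.2 and 37.3. Macrophage markers of other chromosomes were lower in replicate 2 for 7 of 8 genes (median -0.42, 4 below the range and 1 above). Their sum was 218 to 390.1 FPKM in the IgG tumors and 450.3, 286 and 459 in the anti-PD-1 tumors, none was at 0, and their part was not tested. Neutrophil markers, 4 genes above 0 in every tumor, summed to 2.86 to 12.4 FPKM in the IgG tumors and to 10.9, 25.7 and 6.04 in the anti-PD-1 tumors. T cell markers were lower in replicate 2 for 7 of 8 genes (4 below the range, 0 above), with sums of 3.41 to 8.32 FPKM in the IgG tumors and 2.80, 2.996 and 2.498 in the anti-PD-1 tumors and Cd3d, Cd3e and Trac at 0 in some tumor. B and plasma cell markers were lower for 4 of 5 (2 below, 0 above), with sums of 0.482 to 6.86 and of 1.71, 0.404 and 2.04 and with Cd79a and Ms4a1 among the markers at 0 in some tumor. The part of these cells was not tested either.

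DNA replication, repair and cell division had the median closest to 0, at -0.19 over 31 members, with 10 below the range and 1, Ankle1, above. The chromatin protein Hmgb2 was at 33.4, 24.1, 27.0, 28.3, 23.3 and 14.8 FPKM, with replicate 2 within the range. Sap30, of the Sin3 deacetylase complex, was at 28.4, 19.8, 20.5, 20.96, 13.5 and 20.98, and the ubiquitin ligase scaffold Cul4a at 18.6, 15.5, 16.5, 20.7, 14.4 and 21.6, both below it. Proliferation markers of other chromosomes were higher in replicate 2 for 6 of 6 genes, with a median of 0.58, and summed to 58.0 to 96.7 FPKM in the IgG tumors and 87.9, 114 and 60.3 in the anti-PD-1 tumors. None was at 0, and their part was not tested.

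Genes of the ribosome, respiration and proteostasis, which nearly all cells use, gave 28 members, of which 27 were lower in replicate 2. The median was -0.39, with 17 below the range and 0 above. Cox4i1, a subunit of cytochrome c oxidase, was at 194, 184, 209.9, 303, 191 and 321 FPKM, so that replicate 2 had the level of the IgG tumors and both other anti-PD-1 tumors were higher. Lamp1, a lysosomal membrane protein named after its values were seen, was at 214, 170.4, 159, 228, 149 and 217. Ndufb7, of respiratory complex I, was the exception, at 13.2, 10.3, 12.9, 25.7, 19.5 and 23.2.

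Stress response and metabolism gave 22 members with a median of -0.30, 9 below the range and 0 above. Metallothionein Mt1 was at 65.9, 41.8, 91.8, 70.9, 73.6 and 57.0 FPKM, within the range. Slc7a5, a transporter of large neutral amino acids, was at 35.1, 31.8, 51.4, 90.4, 25.6 and 31.7, below the range. Acta1, skeletal muscle actin, was at 0, 50.1, 1.71, 37.7, 48.4 and 0.027, with tumors far apart in both groups. It is itself on the list of 6 skeletal muscle markers, which summed to 0.194, 117 and 3.98 FPKM in the IgG tumors and to 65.7, 124 and 0.342 in the anti-PD-1 tumors and included 3 at 0 in some tumor (Acta1, Ckm and Myh4). The part of muscle tissue in the value of Acta1 was not tested. Adipocyte markers of other chromosomes were lower in replicate 2 for 5 of 5 genes, 2 of them below the range and 0 above. They summed to 4.05 to 5.72 FPKM in the IgG tumors and to 6.96, 1.78 and 3.18 in the anti-PD-1 tumors, with Lep at 0 in some tumor, and their part in the values of Agt, Acsl1 and this list was not tested.

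The study compared anti-PD-1 with IgG, and chromosome 8 was set in that comparison both with and without replicate 2. With all 6 tumors the median log2 fold change was -0.019 over the chromosome, with 385 genes higher and 419 lower in anti-PD-1, and 0.0072 over all genes. In limma, with thresholds of an unadjusted p under 0.05 and 1.5-fold, 30 genes (3.73%) were higher in anti-PD-1, where the share over all genes was 3.9%, and 17 (2.11%) were lower, where it was 4.53%. At an unadjusted p under 0.05 alone there were 60 (7.46%; over all genes 12.3%). No gene passed an adjusted p under 0.05 in limma, on the chromosome or elsewhere (0.0%). In voom on the recovered reads none of the 804 did, and in limma the smallest adjusted p on the chromosome was 0.344. Every anti-PD-1 tumor was above every IgG tumor for 47 genes (5.85%; over all genes 9.3%) and below for 42 (5.22%; over all genes 8.75%).

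Without replicate 2, chromosome 8 was on the higher side in anti-PD-1. The median log2 fold change over the chromosome became 0.13, with that over all genes at 0.0001. At an unadjusted p under 0.05 and at least 1.5-fold, 57 genes (7.09%; over all genes 4.21%) were higher and 12 (1.49%; over all genes 3.36%) lower. Of these, 26 higher and 10 lower genes were also past both thresholds with all 6 tumors. At an unadjusted p under 0.05 there were 91 (11.3%; over all genes 9.27%), none passed an adjusted p under 0.05 in limma (over all genes 0.0%), and the smallest adjusted p was 0.505. Both anti-PD-1 tumors were above all IgG tumors for 211 genes (26.2%; over all genes 14.8%) and below for 57 (7.09%; over all genes 13.6%). The 2 fits share 5 tumors, and the difference between them was not tested. By list, the genes past both thresholds and higher in anti-PD-1 with all tumors and then without replicate 2 were 1 and 8 of 28 for ribosome, respiration and proteostasis, 2 and 2 of 22 for growth factor signaling, 2 and 3 of 15 for matrix and stroma, 1 and 2 of 21 for immune, 1 and 1 of 31 for DNA replication and 2 and 1 of 22 for stress and metabolism, with 0 in the epithelial and endothelial lists. Replicate 2 was picked as the low tumor, so the counts without it are not independent of that choice.

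Among protein-coding members whose groups did not overlap, the 3 higher ones with the smallest limma p were Ndrg4, Il34 and Ndufb7. Ndrg4, of the N-myc downstream-regulated family, was at 7.76, 2.06, 1.55, 108, 18.9 and 54.1 FPKM, a log2 fold change of 3.59 ± 0.68 (limma standard error, adjusted p = 0.344). Il34, a ligand of the macrophage receptor Csf1r, was at 5.40, 2.34, 1.88, 13.1, 8.80 and 13.1, a change of 1.66 ± 0.32 (limma adjusted p = 0.344). Ndufb7, with the values above, changed by 0.86 ± 0.17 (limma adjusted p = 0.344). In all of them replicate 2 was the lowest anti-PD-1 tumor and still above the IgG tumors. Without it the log2 fold changes were 4.25, 1.84 and 0.97.

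The 3 lower ones were Atp11a, AI429214 and Nqo1. The phospholipid flippase Atp11a was at 18.3, 26.6, 14.9, 9.49, 11.9 and 10.2 FPKM, a log2 fold change of -0.82 ± 0.23 (limma adjusted p = 0.344). Nqo1, a quinone reductase of the NRF2 response, was at 11.8, 39.0, 15.1, 9.23, 5.63 and 3.61, a change of -1.57 ± 0.47 (limma adjusted p = 0.346). AI429214 changed by -1.37 ± 0.40 with all tumors (limma adjusted p = 0.344) and by -0.96 without replicate 2. The exact permutation test of 3 against 3 tumors gave p = 0.1 for each of these 6 genes, the smallest that the design allows.

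**Figure D5:**
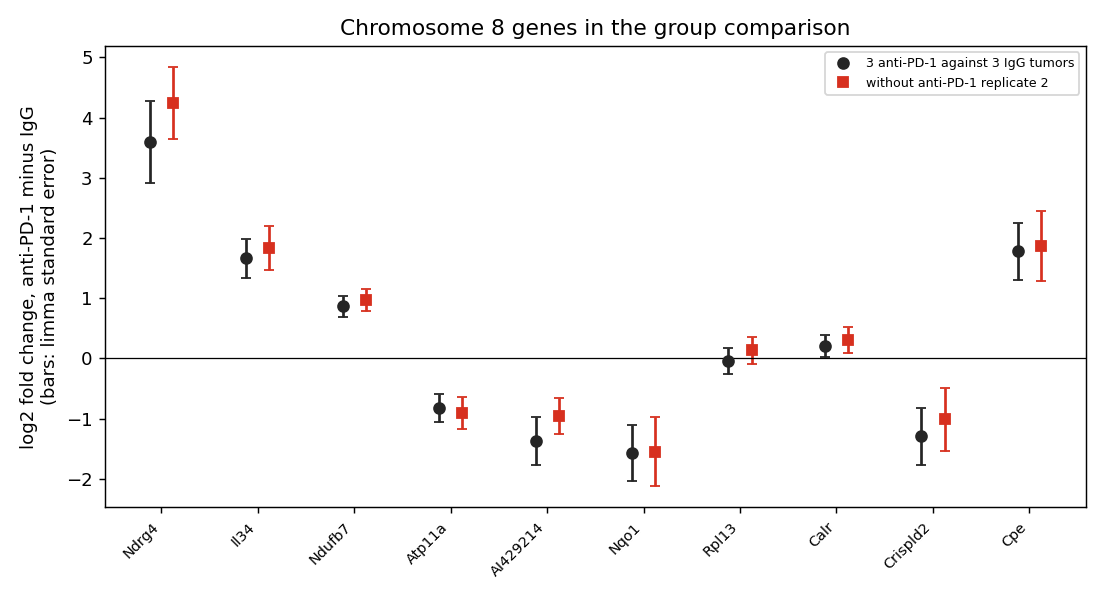
Log2 fold change of anti-PD-1 minus IgG, with its limma standard error as bars, for 10 chromosome 8 genes (6 with groups that do not overlap, then 4 of the 5 most abundant members), from all 6 tumors (black circles) and without anti-PD-1 replicate 2 (red squares). Without replicate 2 Ndrg4 moves from 3.59 to 4.25 and Rpl13 from -0.043 to 0.13.

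Among the genes described above, Isyna1 (1.01 ± 0.24), Cpe (1.78 ± 0.47) and Comp (2.47 ± 0.71) were also higher in all 3 anti-PD-1 tumors, and none passed the adjusted threshold (limma adjusted p = 0.344 for each). Without IgG replicate 2 the change of Comp was 1.64. Fgfr1, which had one of the clearest differences between replicate 2 and the others, had a log2 fold change of -0.14 ± 0.28 with all tumors and of 0.17 ± 0.18 without replicate 2. Crispld2 was at -1.30 ± 0.47 and -1.02 ± 0.53. Rpl13 was at -0.043 ± 0.22 and 0.13 ± 0.22. The direction of Fgfr1 and Rpl13 thus turned with that tumor, while all 4 values were smaller than their standard errors.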

How the data were processed

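RNAseq of 6 tumors (3 IgG, 3 anti-PD-1) was re-analyzed. Per the methods, the authors checked reads with FastQC (v0.11.9), trimmed them with Cutadapt (v3.5), used a Bowtie2 (v2.4.1) index of Ensembl mm10 release 99, counted with RSEM (v1.3.1) and tested with DESeq2 (v1.36.0) in R (v4.1). The authors deposited FPKM per Ensembl gene ID. How FPKM was derived is not given in the sources used here. Of 54532 IDs, 54409 matched GENCODE M21 (Ensembl 96, GRCm38), which gave positions and exon lengths, and 123 did not. FPKM times exon length fell within 0.1 of whole reads for 97.0% to 97.3% of detected values per tumor and for all 804 chromosome 8 genes, which gave the depth. Counting was not said to use strand, so overlapping genes cannot be separated.

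Values were scaled by median-of-ratios factors and taken as log2(FPKM + 1). Genes with mean FPKM of at least 0.5 were tested with limma 3.58.1 (R 4.3.3; eBayes with trend, two-sided, Benjamini-Hochberg over 15069 genes). Exact permutation tests were two-sided. Tables and figures were made in Python 3.11.15 with matplotlib 3.10.9, numpy 2.4.6 and pandas 2.3.3. The chromosome, lists and tests were chosen with earlier results of these data known. Genes were named by a rule: the 4 most abundant of each list, the 5 most abundant, and the 2 on each side of the filter. At a mean FPKM of at least 5, the rule took 10 genes below and up to 10 above the range of the other 5 tumors. These were the genes with the largest difference from the mean of those tumors. It also took the 3 higher and 3 lower with the smallest p among groups not overlapping. Some genes that the rule names are not reported here. Others are marked in the text, except families, given whole, and the longest run of neighbors. On simulated reads for 14377 genes, limma found 200 of 200 changed genes and made 21 false calls at an adjusted p under 0.05. The changes put in had a log2 of 2 and lay only in genes with more reads. Every gene was given the same spread beyond that of read counting, and smaller changes were not simulated. A shift of -0.4 put in for replicate 2 came out as -0.28.

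Alternatives were eBayes without trend, voom on recovered reads, quantile normalization, the deposited FPKM unscaled, 0.1 in place of 1, no filter, a filter at 2 FPKM, the replicate number as a block, protein-coding genes only, other base tumors, and leaving out each tumor.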

Additional observations from a re-analysis of the deposited data

How the results depend on the processing

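The lower level of chromosome 8 in anti-PD-1 replicate 2 had the same direction under every alternative tried. The shift of -0.35 was -0.43 with 0.1 added to the FPKM, -0.44 against the 2 other anti-PD-1 tumors and -0.13 with no filter on low FPKM (1458 genes, many at 0 or a few reads), and between -0.37 and -0.32 when 1 other tumor was left out. The 405 genes below the range became 638 against the 2 other anti-PD-1 tumors, and 427 outside it in either direction became 699. The 22 genes above the range became 98 with no filter, 6 at a mean FPKM of at least 2, 10 with protein-coding genes only, 78 against the 3 IgG tumors, 61 against the 2 other anti-PD-1 tumors and 27 to 41 when 1 tumor was left out, the highest without anti-PD-1 replicate 3. A range over fewer tumors is narrower by construction. The share over all genes was not computed under these alternatives, so it is not known whether these changes are particular to chromosome 8.

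In the group comparison with all tumors, leaving out 1 tumor gave 17 to 57 genes higher in anti-PD-1 (17 without anti-PD-1 replicate 3, 57 without anti-PD-1 replicate 2), 12 to 35 lower (35 without IgG replicate 1) and 35 to 77 in all (77 without IgG replicate 1). Without replicate 2, leaving out another tumor gave 41 to 70 higher and 9 to 22 lower (22 without IgG replicate 1), where an arm of 1 tumor was assumed to vary like the others. The cause of these changes was not tested. With the replicate number as a block, 37 genes were higher and 18 lower with all tumors, and 41 and 11 without replicate 2. The share over all genes was not computed for these counts, except for those without replicate 2 alone, given above. The labels do not say whether the numbers pair the tumors. Same-numbered tumors correlated at -0.16, 0.0051 and 0.19 in their deviations from the group means, and not every tumor correlated best with its own number. Deviations from a mean of 3 tumors sum to 0, so these values cannot decide whether the numbers pair. No gene of the chromosome passed an adjusted p under 0.05 in limma or voom under any alternative. The single-gene values recomputed under the alternatives kept their sign and none passed the adjusted threshold, but sizes varied. They were replicate 2 against the others for the genes that the rule named as outside the range, and the group comparison for those named there. In the group comparison of the other named genes, Atp2c2 (-0.55 to 0.22), Fgfr1 (-0.14 to 0.17), Elmo3 (-0.095 to 0.063) and Rpl13 (-0.043 to 0.13) changed sign without anti-PD-1 replicate 2. Agt (-2.28) and Cdh5 (-1.67) with 0.1 added and Cmc2 (0.069) against the 2 other anti-PD-1 tumors moved by more than the SD of the other 5 tumors. Against those 2 tumors Isyna1 went from 0.72 to 0.14, Ddhd2 from -0.97 to -0.46 and Crispld2 from -1.45 to -0.84. Bst2 went from 0.57 to 0.32 and Gm17720 from 1.11 to 1.98. Against the 3 IgG tumors the same genes moved the other way, to 1.11, -1.32, -1.85, 0.74 and 0.52, and Cmc2 was at 0.49. Comp in the group comparison went from 2.47 to 1.64 without IgG replicate 2. In the group comparison without replicate 2, leaving out anti-PD-1 replicate 3 as well took Crispld2 from -1.02 to -0.40, Nqo1 from -1.55 to -0.97 and AI429214 from -0.96 to -0.56.

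With 3 tumors per group, a difference of 1 tumor has no replicate of its own. For genes with fewer than 50 reads, the place within or outside a range rests on few counts.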
